A study of Mus musculus with 34 samples.

Results

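Nhlrc3, the mouse gene for the NHL-repeat protein that the study calls Regina, was described together with 6 relatives, Nhlrc1, Nhlrc2, Nhlrc4, Trim2, Trim3 and Trim32. These 7 genes were taken by symbol as named carriers of the NHL repeat, by a rule that uses no measured value but was written with earlier results of these data known, and all 7 were found among the 23366 gene rows of the table. RNA-seq was from J1 mESCs, an established mouse embryonic stem cell line, grown in serum medium on gelatin. All cultures lacked LIF, the cytokine that keeps mESCs undifferentiated in serum. The serum/-LIF group (n = 2 libraries) had no addition, and the serum/-LIF + Royalactin group (n = 2 libraries) received purified Royalactin, the major royal jelly protein, at 0.5 mg/ml. The labels give no genetic modification and passage 40 for all 4 libraries, which is not the passage that the study's own description of this RNA-seq gives. A single cell line was used, the harvest time of these libraries is not given, and the labels speak of replicate cultures without tying each library to a culture, so p-values measure only the spread between these libraries. The study's ATAC-seq and the other culture conditions were not analysed here.

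The NHL repeat is a short motif named after NCL-1, HT2A and LIN-41. Several copies fold together into a beta-propeller, a ring of blades whose faces bind protein or RNA. In Trim2, Trim3, Trim32 and Trim71 the propeller lies at the C-terminal end of a RING E3 ubiquitin ligase, and in Nhlrc1 (malin, the E3 ligase mutated in Lafora disease) it follows a RING domain. Nhlrc2 carries a thioredoxin-like domain beside its repeats. Royalactin itself is a predicted propeller protein, and the study took up Nhlrc3 because its predicted fold resembles that of Royalactin. The study added recombinant NHLRC3 to mESC cultures and reported that the cells stayed undifferentiated. RNA levels of Nhlrc3 do not measure that effect.

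The values are DESeq-normalized counts, which are read counts of a gene divided by a size factor of the library. Gene counts summed to 14737796 to 17597818 reads per library. The ribosomal RNA precursor Rn45s made up 46.6% and 21.6% of them in serum/-LIF and 38.4% and 9.08% with Royalactin (replicates 1 and 2 in that order, as throughout). Embryonic stem cell markers were present in every library, and the summed normalized count of Pou5f1, Sox2, Nanog, Zfp42 and Esrrb was 7993 and 8308 in serum/-LIF and 15350 and 17140 with Royalactin. Of these 5 markers, 3 rose with Royalactin (Esrrb, Zfp42 and Sox2, adjusted p under 0.05), beside 0.331% of all tested genes called higher. A list of 10 fibroblast markers summed to 112 and 95.2 in serum/-LIF and 55.3 and 37.9 with Royalactin, with Postn, Pdgfrb and Fap at 0 in all 4 libraries. Only Thy1 and Dcn of these 10 were tested, and 0 passed an adjusted p under 0.05. Dcn had 37.5 and 31.1 normalized counts in serum/-LIF and 0 in both Royalactin libraries. Thy1 had 41.5 and 33.1 against 45.3 and 29.6, with a log2 fold change of -0.017. Among the untested markers Col1a1 and Col3a1 were lower with Royalactin, and Col1a2 had 0 and 1.04 against 10.1 and 0. A list of 7 primitive endoderm markers summed to 340 and 295 in serum/-LIF and to 294 and 189 with Royalactin, a sum made up mostly of Dab2 (283 and 245 against 188 and 126). Gata4 went the other way, with 28.1 and 8.28 against 49.3 and 44.7 normalized counts. Of the 3 tested markers of that list 0 passed the threshold, and their median log2 fold change, 1.28, was that of Sox7. Sox7 had 0 and 41.4 normalized counts in serum/-LIF and 26.15 and 8.26 with Royalactin, and its mean was lower with Royalactin (17.2 against 20.7). The part of these shifts in the differences described below was not tested, and in bulk RNA fewer expressing cells cannot be told apart from less RNA per cell.

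Of the 7 NHL-repeat genes, 5 had a mean normalized count of at least 10 and were tested, and only Trim2 passed the threshold, with a higher level under Royalactin. Differences were tested with limma on log2(normalized count + 1) over 12993 genes with Benjamini-Hochberg adjustment. At an adjusted p under 0.05, 1 of the 5 tested NHL-repeat genes was higher and 0 were lower, beside 0.493% of all tested genes called in either direction (43 higher and 21 lower). The 4 others had a log2 fold change between -0.98 and 0.28, and their libraries overlapped between the groups. The groups thus lay apart for 20.0% of the 5 genes, beside 38.6% of all tested genes. The median log2 fold change of the 5 genes was -0.26, against -0.0076 over all tested genes. Nhlrc1 and Nhlrc4 fell below the filter on low values.

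**Figure D1:**
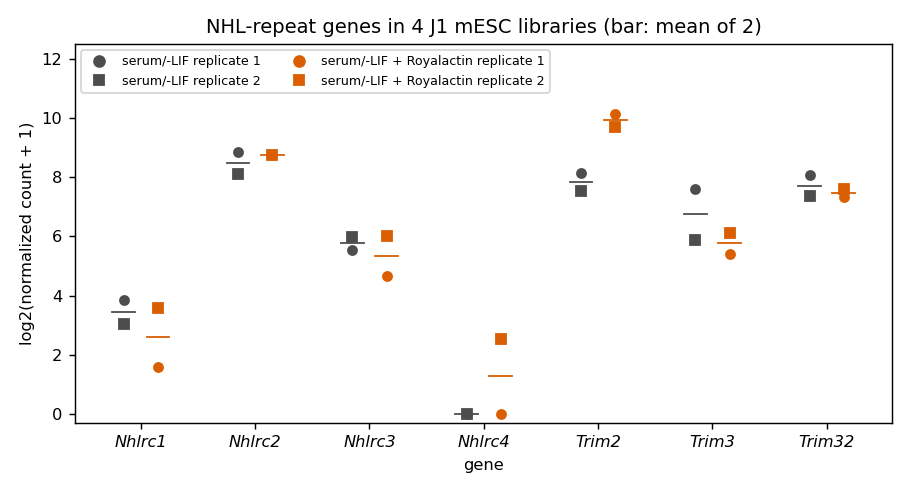
Normalized counts of the 7 NHL-repeat genes on a log2(value + 1) axis, with a point for each of the 4 J1 mESC libraries and a bar at the mean of the 2 libraries of each group. Trim2 is the only tested gene of the 7 whose Royalactin libraries (827 and 1124 normalized counts) lie apart from the serum/-LIF libraries (182 and 281). Of all tested genes 38.6% had groups apart in either direction.

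Nhlrc3 was weakly expressed and did not differ detectably between the conditions. It lies on mouse chromosome 3, minus strand (chr3:53252510-53267245 in mm9, the build of the authors' alignment), with 7 exon blocks that cover 5601 bases and a coding length of 1041 bases. Its normalized count was 45.5 and 62.1 in serum/-LIF replicates 1 and 2, and 24.1 and 64.0 with Royalactin. The lowest and the highest values were thus both Royalactin libraries, and the groups overlapped. These values rested on 34, 60, 24 and 93 reads. The exact 95% Poisson intervals of the Royalactin replicates, 15.5 to 35.9 and 51.7 to 78.4 normalized counts, did not overlap, while those of the serum/-LIF replicates, 31.5 to 63.5 and 47.4 to 79.9, did. Such intervals, and the floor of 3 reads used further on, cover counting error only. How PCR copies of a molecule were handled is not described, and copies counted as separate reads would make the intervals too narrow.

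The group means of Nhlrc3 were 53.8 ± 11.8 normalized counts in serum/-LIF and 44.1 ± 28.2 with Royalactin (SD, n = 2). Its log2 fold change was -0.42 (standard error 0.79, 95% interval -2.12 to 1.27, limma with Benjamini-Hochberg adjustment, adjusted p = 0.908). The interval runs from 0.231-fold to 2.42-fold, so a 2-fold difference in either direction lies within it and would not have been detectable at this depth and spread. The sign rested on Royalactin replicate 1, and without it the log2 fold change was 0.26 (limma, Benjamini-Hochberg adjusted p = 1.00).

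The region just before the annotated start of Nhlrc3 is shown because the study compares its protein with Royalactin. That of Nhlrc4 is shown because Nhlrc4 is nearly silent in these cells. Each is the 250 bases before the start (RefSeq, GRCm38.p6, minus strand of chr3:53463259-53463508 for Nhlrc3 and of chr17:25944932-25945181 for Nhlrc4), 5′ to 3′, with CpG dinucleotides in capitals.
Nhlrc3: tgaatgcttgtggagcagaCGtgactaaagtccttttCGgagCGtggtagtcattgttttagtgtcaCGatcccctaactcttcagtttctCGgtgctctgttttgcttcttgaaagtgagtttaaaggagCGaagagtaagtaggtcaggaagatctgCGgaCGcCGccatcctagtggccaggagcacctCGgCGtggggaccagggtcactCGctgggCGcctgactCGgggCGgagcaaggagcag
Nhlrc4: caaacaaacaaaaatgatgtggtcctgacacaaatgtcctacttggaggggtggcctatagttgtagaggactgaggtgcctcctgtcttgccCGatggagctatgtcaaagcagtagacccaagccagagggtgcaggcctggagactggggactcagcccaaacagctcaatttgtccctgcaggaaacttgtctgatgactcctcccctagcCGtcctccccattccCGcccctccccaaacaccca
The Nhlrc3 window held 15 CpG, more than 72.7% of 32851 mouse promoter windows of the same length, and the Nhlrc4 window held 3, more than 29% of them. The median over all windows was 6 CpG. Nhlrc1, also weakly expressed, had 19 CpG in its window, so the weakly expressed relatives did not share a low number.

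Nhlrc3 stands head to head with Proser1, whose annotated start is 342 bases away on the plus strand. Proser1 had 300 and 96.3 normalized counts in serum/-LIF and 216 and 140 with Royalactin, with a log2 fold change of 0.03 (limma, Benjamini-Hochberg adjusted p = 0.992). On the other side the nearest protein-coding gene is Lhfp, 186908 bases away, with a log2 fold change of -0.09. Neither neighbour passed the test. An antisense lincRNA, Gm16206, shares 144 exon bases with Nhlrc3. Whether counting used strand is not stated, so how reads of these bases were counted is not known.

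The tested genes whose profile over the 4 libraries was most like that of Nhlrc3 were Manbal, B330016D10Rik and Ssna1. Their log2 values, centred on each gene's mean, differed from those of Nhlrc3 by a root mean square of 0.046, 0.080 and 0.087. With 4 libraries such likeness is easily met, and 8 genes lay within 0.1. Manbal, for example, had 97.6 and 129 normalized counts in serum/-LIF and 53.3 and 128 with Royalactin.

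Among the genes with NHL repeats, Nhlrc3 ranked low by level. To compare genes, normalized counts were divided by the kilobases of annotated exon, for the 7 genes and 6 others (Trim71, Pam, Tenm1, Tenm2, Tenm3 and Tenm4). Nhlrc3 had 8.74 ± 3.30 normalized counts per kilobase over the 4 libraries (SD, n = 4), above 13.2% of all tested genes. It stood 8th of 13 in serum/-LIF with 9.60 per kilobase and 9th of 13 with Royalactin with 7.87 per kilobase. In serum/-LIF its libraries overlapped those of Tenm4, the next gene below, and of Trim2, the next above, and with Royalactin those of Nhlrc1 below it and of Trim3 above it. With the longest transcript in place of all exons Nhlrc3 kept the 9th rank by its mean over the 4 libraries, but of these overlaps only that with Tenm4 remained. By that length the libraries of Nhlrc3 lay below those of Trim2 in serum/-LIF. With Royalactin they lay below those of Trim3 and narrowly above those of Nhlrc1 (4.83 against 4.80 per kilobase).

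The order was led by Trim71 (Lin41, an RNA-binding regulator of early development), with 478 normalized counts per kilobase in serum/-LIF and 568 with Royalactin. Its libraries lay above those of every other NHL-repeat gene in both groups. Nhlrc2, Tenm3 and Trim32 followed in serum/-LIF with 93.0, 91.4 and 67.0 per kilobase, each overlapping the next. The libraries of Trim32 lay above those of Trim3, Pam and Trim2, which had 27.4, 16.7 and 13.9 per kilobase and overlapped in turn. With Royalactin Trim2 moved to the 4th place with 58.5 per kilobase, overlapping Trim32 with 54.2. Trim2 has 18 annotated transcripts whose exons cover 16677 bases, while the longest holds 7428. Per kilobase of the longest transcript Trim2 had 31.2 in serum/-LIF and 131 with Royalactin, which was the 2nd place after Trim71. By that length the serum/-LIF libraries of Trim32 (50.88 and 84.58) overlapped those of Trim3 (19.22 and 63.85). Tenm3 then stood before Nhlrc2 in serum/-LIF (111 against 93.0 per kilobase), with overlapping libraries.

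**Figure D2:**
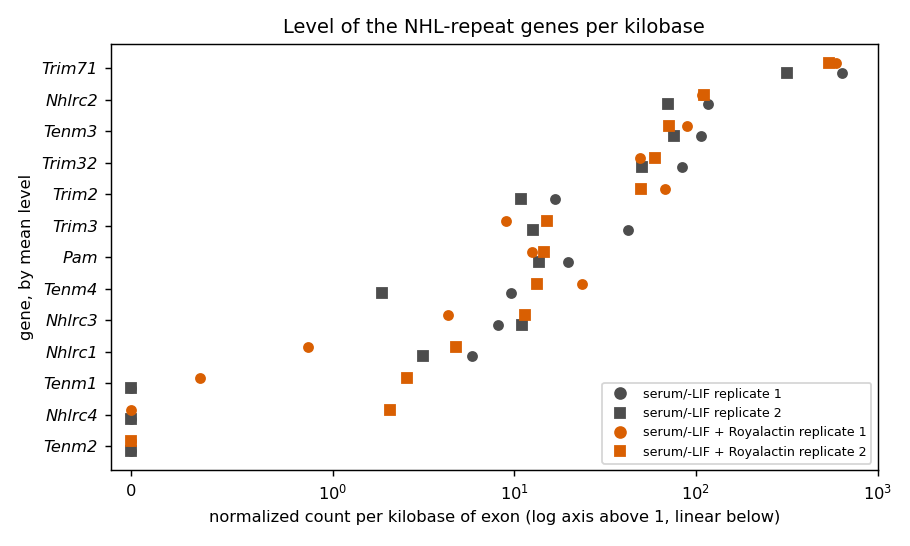
Normalized counts per kilobase of annotated exon for 13 NHL-repeat genes, ordered by their mean over the 4 libraries, on an axis that is logarithmic above 1 and linear below. Trim71 stands above the rest in every library, and Nhlrc3 is the 9th gene with a mean of 8.74 per kilobase.

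Trim2 was the only NHL-repeat gene called at an adjusted p under 0.05. It is an E3 ligase best known from neurons, where it acts on the neurofilament light chain. It lies on chromosome 3, minus strand (chr3:83964361-84109368 in mm9), with a coding length of 2310 bases. Its normalized count was 281 and 182 in serum/-LIF replicates 1 and 2, and 1124 and 827 with Royalactin. The lower of the Royalactin values was above the higher of the serum/-LIF values, which was also so for 19.7% of all tested genes. The reads behind these values were 210, 176, 1117 and 1202.

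Mean Trim2 was 232 ± 69.8 normalized counts in serum/-LIF and rose to 976 ± 209 with Royalactin (SD, n = 2). The log2 fold change was 2.09 (standard error 0.37, 95% interval 1.30 to 2.87, limma with Benjamini-Hochberg adjustment, adjusted p = 0.0220). This is a fitted 4.25-fold rise, with an interval from 2.46-fold to 7.33-fold. Trim2 was the 37th of 12993 genes by p and the 390th by the size of the rise. Leaving out any 1 library kept the direction, with log2 fold changes from 1.78 to 2.40, but ended the call (limma adjusted p from 0.166 to 1.00), and with 3 libraries 0 of all tested genes were called. The call was also lost with a pseudocount of 0.1, without the filter on low values and in limma without the trend (Benjamini-Hochberg adjusted p = 0.0598, 0.0548 and 0.332). At the study's own limits of an unadjusted p of 0.05 and a 2-fold change, Trim2 was again the only one called of the 5 tested among the 7 genes. Of all tested genes 7.13% met these limits (3.52% higher and 3.61% lower), among them Tenm4, described below.

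**Figure D3:**
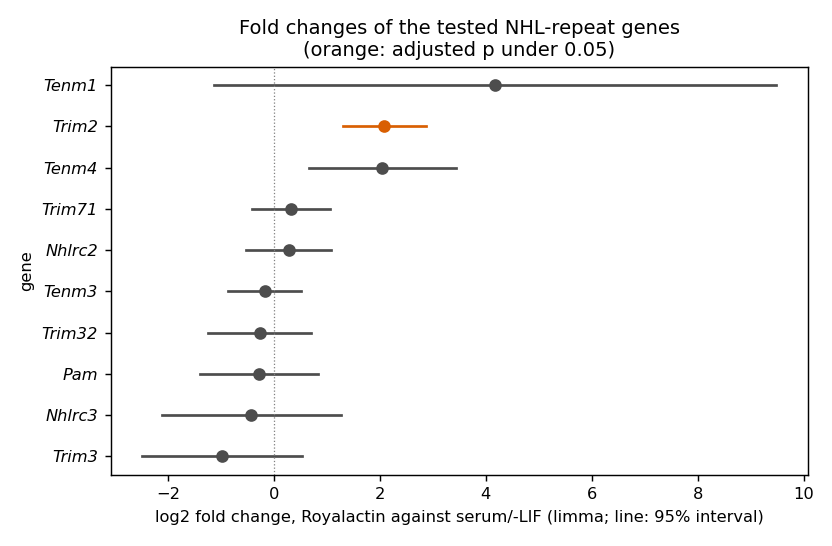
Fitted log2 fold changes of the 10 tested NHL-repeat genes with 95% intervals from limma, and genes with an adjusted p under 0.05 in orange. Trim2 (2.09) is the only gene past the threshold, and the interval of Nhlrc3 spans -2.12 to 1.27.

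RefSeq lists 5 starts for Trim2, and the windows before them held 12, 0, 16, 9 and 2 CpG, from the outermost start inwards. Counts per gene do not tell which start was used. The 250 bases before 3 of these starts are shown because Trim2 is the NHL-repeat gene called at an adjusted p under 0.05. In the window of the outermost start (GRCm38.p6, minus strand of chr3:84304776-84305025) CpG dinucleotides are in capitals. In those of the 2nd (chr3:84270784-84271033) and the 5th (chr3:84212839-84213088) capitals mark AAGGTCA, the motif of the orphan nuclear receptor Esrrb, on either strand.
Trim2 start 1: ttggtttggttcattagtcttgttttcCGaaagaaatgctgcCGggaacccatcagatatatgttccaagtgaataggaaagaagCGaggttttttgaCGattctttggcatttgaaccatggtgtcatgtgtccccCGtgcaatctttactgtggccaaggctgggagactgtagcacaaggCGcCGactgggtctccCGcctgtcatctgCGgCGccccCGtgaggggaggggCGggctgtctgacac
Trim2 start 2: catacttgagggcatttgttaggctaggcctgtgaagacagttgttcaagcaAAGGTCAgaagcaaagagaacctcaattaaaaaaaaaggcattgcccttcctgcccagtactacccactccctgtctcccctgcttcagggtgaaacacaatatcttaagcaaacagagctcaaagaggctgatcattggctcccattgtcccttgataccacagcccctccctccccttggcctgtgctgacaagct
Trim2 start 5: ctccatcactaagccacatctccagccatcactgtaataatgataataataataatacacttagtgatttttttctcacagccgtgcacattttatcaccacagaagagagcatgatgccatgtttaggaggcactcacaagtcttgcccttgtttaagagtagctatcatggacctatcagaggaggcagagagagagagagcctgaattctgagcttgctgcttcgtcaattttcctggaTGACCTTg
AAGGTCA stood 198 bases before the 2nd start and 8 bases before the 5th, and not in the windows of starts 1, 3 and 4. It was held by 4.08% of 32851 windows on either strand. This is a share per window, and with 5 windows Trim2 had more places for a match than a gene with 1. Esrrb was among the markers that rose, from 233 and 181 normalized counts in serum/-LIF to 1641 and 1390 with Royalactin. Whether the rises of Esrrb and Trim2 are connected was not tested. The Esrrb motif was not in the windows of Nhlrc1, Nhlrc3, Nhlrc4 or Trim32, which have 1 each. TTCNNNGAA, the motif of Stat3, the factor through which LIF acts, was in 7.02% of all windows and in none of the windows of these 5 genes. These are matches of letters and show no binding.

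Trim3 and Trim32 did not pass the test. Trim3, a ligase found at synapses, had 193 and 58.0 normalized counts in serum/-LIF and 41.2 and 68.8 with Royalactin. The groups overlapped, with serum/-LIF replicate 1 alone high. The log2 fold change was -0.98 (95% interval -2.48 to 0.53, limma, Benjamini-Hochberg adjusted p = 0.726), and without serum/-LIF replicate 1 it was -0.12. Trim32, the ligase mutated in a limb-girdle muscular dystrophy, had 270 and 163 normalized counts in serum/-LIF and 159 and 191 with Royalactin. Its log2 fold change was -0.26 (95% interval -1.24 to 0.71, limma, Benjamini-Hochberg adjusted p = 0.901). The Trim32 gene lies within an intron of Astn2, which is on the opposite strand and had at most 7.57 normalized counts in any library.

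Nhlrc2, which is expressed in most tissues, was the most strongly expressed of the 7 genes per kilobase in both groups when all exons were counted. It had 456 and 275 normalized counts in serum/-LIF and 427 and 433 with Royalactin, so the Royalactin libraries lay between the serum/-LIF libraries. The log2 fold change was 0.28 (95% interval -0.53 to 1.09, limma, Benjamini-Hochberg adjusted p = 0.870). Nhlrc1 had 13.4 and 7.25 normalized counts in serum/-LIF and 2.01 and 11.0 with Royalactin, from 10, 7, 2 and 16 reads. Fitted without the filter on low values, its log2 fold change was -0.86 (limma, Benjamini-Hochberg adjusted p = 0.890). Nhlrc4 was listed at 0 in 3 libraries and had 4.82 normalized counts, or 7 reads, in Royalactin replicate 2. No fold is given for Nhlrc4, since its group means are at or under the floor of 3 reads per library, and 246 of its exon bases overlap those of Pigq on the same strand. Tiles of 75 bases were placed every 25 bases within the exon blocks of the 7 genes. None of these tiles matched the genome elsewhere without gaps and with up to 2 mismatches. Stretches across exon junctions and blocks shorter than 75 bases were not covered.

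Of the 6 other NHL-repeat genes 5 were tested and 0 passed an adjusted p under 0.05. Their median log2 fold change was 0.33. Tenm4, a teneurin (a large cell-adhesion receptor of neurons), had 201 and 39.3 normalized counts in serum/-LIF and 496 and 280 with Royalactin. The groups did not overlap, but its log2 fold change of 2.05 (95% interval 0.67 to 3.43) missed the threshold (limma, Benjamini-Hochberg adjusted p = 0.263). Tenm4 did meet the study's own limits (4.14-fold, limma, unadjusted p = 0.00679), as did 3.52% of all tested genes in the higher direction. Tenm1 was listed at 0 in both serum/-LIF libraries and had 6.04 and 45.4 normalized counts with Royalactin. The Royalactin mean was 7.23-fold the floor of 3 reads in each serum/-LIF library. This ratio is not a lower bound, since the 95% Poisson interval of 0 reads extends to 3.69 reads. The ratio was 12.8-fold without Royalactin replicate 1 and 1.70-fold without Royalactin replicate 2. The fitted 95% interval of Tenm1 ran from 0.456-fold to 716-fold (limma, Benjamini-Hochberg adjusted p = 0.658). Tenm2 was listed at 0 in all libraries. Trim71 had a log2 fold change of 0.33, Tenm3 of -0.17 and Pam, which makes amidated peptides, of -0.28.

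The other TRIM genes set the rise of Trim2 beside its wider family. Of 62 TRIM genes in the table other than Trim2, Trim3 and Trim32 (Trim71 included), 34 were tested and 0 passed an adjusted p under 0.05 in either direction. The groups did not overlap for 10 higher and 5 lower genes, which is 44.1% of the 34 against 38.6% of all tested genes (19.7% higher and 18.9% lower). The median log2 fold change was 0.16. The most positive log2 fold change was that of Trim16 (2.39, limma, Benjamini-Hochberg adjusted p = 0.680), which had 2.68 and 5.18 normalized counts in serum/-LIF and 39.2 and 14.5 with Royalactin. The most negative log2 fold change was that of Trim72, a muscle membrane-repair protein (-3.44, limma, Benjamini-Hochberg adjusted p = 0.728), at 37.5 and 4.14 against 0 and 0.688 normalized counts. At an unadjusted p under 0.05 (limma), 4 of the 34 genes were higher and 1, Trim67, was lower. Trim67 had 444 and 258 normalized counts in serum/-LIF and 106 and 66.8 with Royalactin. Its log2 fold change was -1.997 (limma, unadjusted p = 0.00114, Benjamini-Hochberg adjusted p = 0.124), which met the study's own limits.

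**Figure D4:**
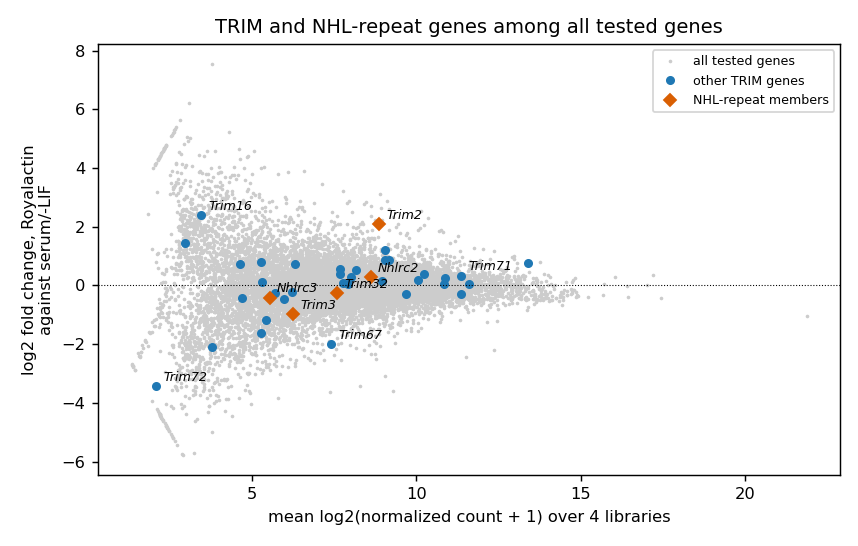
Fitted log2 fold change against mean log2(normalized count + 1) for all 12993 tested genes (grey), the 34 other tested TRIM genes (blue) and the 5 tested NHL-repeat genes (orange diamonds). Trim2 lies at 2.09, and the only TRIM gene with a higher fitted value, Trim16 at 2.39, has a much lower level.

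Reported substrates and partners of Trim2, Trim3 and Trim32 were described as a list of 11 genes. All 11 were tested, 0 were higher and 1, Nefl, was lower at an adjusted p under 0.05, beside 0.331% of all tested genes called higher and 0.162% called lower. The median log2 fold change of the list was -0.096. Nefl encodes the neurofilament light chain, a reported target of Trim2. It had 1693 and 1960 normalized counts in serum/-LIF and 521 and 727 with Royalactin. The mean fell from 1827 ± 189 to 624 ± 146 (SD, n = 2). The log2 fold change of Nefl was -1.56 (95% interval -2.23 to -0.89, limma, Benjamini-Hochberg adjusted p = 0.0450). Leaving out any 1 library kept the direction and ended the call (limma adjusted p from 0.180 to 1.00), as did another scaling (adjusted p = 0.0644 with equal upper quartiles). RNA levels do not measure the action of a ligase on a protein, and whether the changes of Nefl and Trim2 are connected was not tested.

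The neighbouring neurofilament gene Nefm is annotated on the opposite strand and shares 1108 exon bases with Nefl. Whether counting used strand is not stated, so how reads of that stretch were counted is not known. Nefm had 310 and 275 normalized counts in serum/-LIF and 99.6 and 21.3 with Royalactin (limma, Benjamini-Hochberg adjusted p = 0.136). Nefm is 1 of 8 neuron markers on a fixed list, of which 0 passed the threshold. Their sum was 1593 and 2045 normalized counts in serum/-LIF and 1901 and 2254 with Royalactin, and none was at 0 in all 4 libraries. Stmn2 was the largest term of that sum in every library, with 661 and 1232 normalized counts in serum/-LIF and 1162 and 1406 with Royalactin. The median log2 fold change of the 8 markers was -1.08, with 5 of 8 fitted lower. Syt1 and Dcx were at 0 in both Royalactin libraries. Tubb3, the neuronal tubulin, had 377 and 379 normalized counts in serum/-LIF and 484 and 708 with Royalactin. The part of neuron-like cells in the fall of Nefl was not tested. In the substrate list the most positive log2 fold change was that of Pias4, a SUMO ligase and reported target of Trim32 (0.27).

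**Figure D5:**
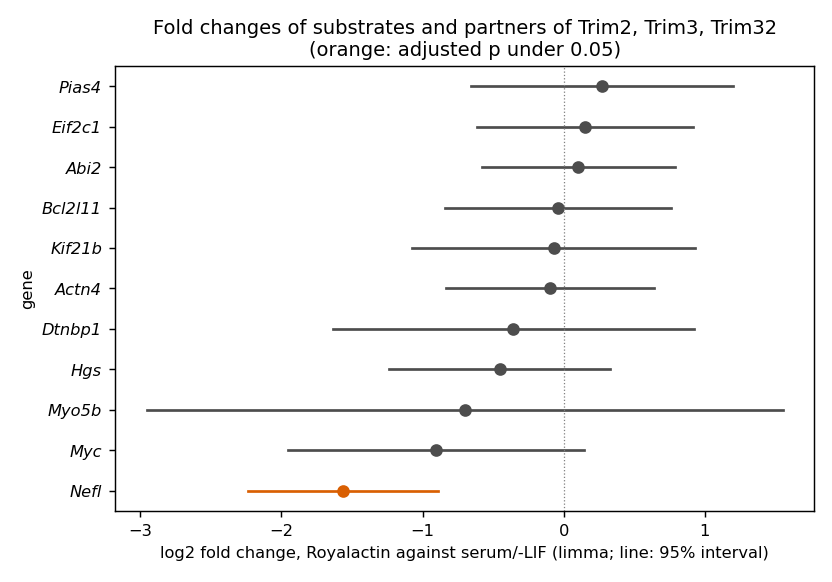
Fitted log2 fold changes with 95% intervals from limma for 11 reported substrates or partners of Trim2, Trim3 and Trim32, with adjusted p under 0.05 in orange. Nefl (-1.56) is the only gene of the list past the threshold.

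Malin, the product of Nhlrc1, acts with laforin (Epm2a) on proteins of glycogen metabolism. Of 13 genes of glycogen metabolism 9 were tested, and 0 passed an adjusted p under 0.05. The median log2 fold change was -0.36. The most positive log2 fold change was that of Gys1, the glycogen synthase of most tissues, with 265 and 229 normalized counts in serum/-LIF and 392 and 326 with Royalactin (0.54). The most negative log2 fold change was that of Stbd1, a glycogen-binding protein, with 40.1 and 150 against 5.03 and 37.2 normalized counts (-2.38, limma, Benjamini-Hochberg adjusted p = 0.507). Epm2a had at most 4.14 normalized counts in any library, so both genes of the malin and laforin pair were near the limit of detection.

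Of 5 other genes for predicted or known 6-bladed propellers without NHL repeats, Pon1 and Rgn were listed at 0 in all libraries. Pon2 had a log2 fold change of 0.59 and Apmap, an adipocyte membrane protein, of -0.74, with 185 and 192 normalized counts in serum/-LIF and 85.5 and 147 with Royalactin. Neither passed the test (limma, Benjamini-Hochberg adjusted p = 0.877 and 0.697).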

How the data were processed

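RNA-seq libraries of J1 mESCs in serum/-LIF (n = 2) and serum/-LIF + Royalactin (n = 2) were used, grouped by their labels. Reads had been aligned to mm9 (Tophat) and assigned to genes (HTSeq-count) by the authors, who deposited DESeq-normalized counts, a signal proportional to reads. Strand setting and annotation are not stated. In each library 100% of values were whole multiples of a step (0.688 to 1.34) to within 0.01 read, and reads are values divided by it. For replicate 1 of Royalactin the step was too near 1 to be decided automatically, so no test on read counts was run.

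Log2(normalized count + 1) of genes with a mean of at least 10 was tested with limma 3.58.1 in R 4.3.3 (two-sided, variance trend on expression, Benjamini-Hochberg adjustment). The steps were tested on simulated data. Exon lengths and mm9 positions came from GENCODE M1 (94.0% of symbols, 98.0% of tested genes), promoter windows from RefSeq GRCm38.p6, with none found for Nhlrc2 and Trim3. Exon tiles were mapped with minimap2 2.31-r1302. The genes and lists were chosen with earlier results of these data known. Named were all 7 genes, the other NHL-repeat genes, genes overlapping or flanking Nhlrc3, the 3 profiles nearest to it, and in each list up to 4 genes past the threshold or else the largest rise and fall. Marker genes, Nefm, and the genes Epm2a, Astn2, Pigq and Trim67 were also named beside results they touch. Alternatives were pseudocounts (0.1, 5), filters (none, a mean of 50), scalings, limma without trend, the replicate block, a GC content and exon length correction, and each library left out.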

Additional observations from a re-analysis of the deposited data

How the results depend on the processing

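Each group has 2 libraries, and the filter on low values left Nhlrc1 and Nhlrc4 untested. Trim2 kept its direction in all 14 alternatives and its call in 7. Its log2 fold change was 2.09 but past no threshold with a pseudocount of 0.1 (adjusted p = 0.0598), with no filter on low values (0.0548) and in limma without the trend (0.332), and 1.78 to 2.40 with each library left out. Nhlrc3 ranged from -1.11 to 0.26 over the libraries left out. With a library left out the sign also turned for Nhlrc2 (-0.086 to 0.64) and Trim71 (-0.17 to 0.83), both without serum/-LIF replicate 2, and for Trim32 (-0.63 to 0.10) and Tenm3 (-0.42 to 0.068), both without serum/-LIF replicate 1. None of the 4 was called. Nefl kept its direction throughout and its call in 5 of 14. A filter at a mean of 50 left Nhlrc3 untested. The causes were not tested.

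Of all tested genes, 64 passed an adjusted p of 0.05, against 32 with a pseudocount of 0.1, 34 without the filter, 99 with a minimum mean of 50, 272 with the GC content and exon length correction and 0 without the trend (1135 at an unadjusted p under 0.05). With each library left out 0 passed (428 to 2496 at an unadjusted p under 0.05), and the number at an unadjusted p of 0.05 and 2-fold ranged from 427 to 1925, against 927. With the replicate block 391 genes passed, and 807 with the correction as well. The labels pair no libraries by number, and deviations of same-numbered libraries had a correlation of 0.085. With the block Trim2 had an adjusted p of 8.3e-07 and Tenm4 of 0.0015, and the calls of Nhlrc2, Nhlrc3, Trim3, Trim32, Trim71, Pam, Tenm3 and Nefl did not change.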
